A study of Mus musculus with 35 samples.

Results

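Liver X receptors (LXR) and a set of their target genes were followed in sorted myeloid-derived suppressor cells (MDSC) and in whole tumor from mice with pancreatic cancer. The set held 7 of the 53379 genes of the count table, chosen by gene symbol. It contained the receptors Nr1h3 (LXR alpha) and Nr1h2 (LXR beta) and the targets Abca1, Abcg1, Mylip, Srebf1 and Scd2. The genes were selected on their pattern in these same libraries. Their fold changes and adjusted p-values are therefore a description of the set and not an independent test of it.

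Bulk RNA-seq was performed on 30 MDSC libraries and 4 bulk tumor libraries. All mice were C57BL/6 females carrying orthotopic pancreatic tumors of T110299 cells, a single line from a genetically engineered mouse whose alleles included Ptf1a-Cre and LSL-Trp53 fl/R172H. The methods give wild type mice aged 6 to 12 weeks and state no age for single animals. Treated mice were injected i.v. on day 18 and day 20 with 50 µg of poly(I:C) complexed with the polymer in vivo-jetPEI (poly(I:C)c), a double-stranded RNA mimic that is sensed by MDA5 and TLR3 and elicits type I interferon, and untreated mice were given glucose instead. PMN-MDSC (CD11b+ Ly6C low Ly6G+) and M-MDSC (CD11b+ Ly6C high Ly6G-) were enriched with CD11b beads and sorted by flow cytometry from spleen and tumor, so that the libraries rest on surface gates and not on clonal populations. Splenic PMN-MDSC comprised 4 untreated and 3 treated libraries, tumor PMN-MDSC 4 and 4, splenic M-MDSC 4 and 4, and tumor M-MDSC 4 and 3. Another library of treated tumor M-MDSC held 10 counts and was left out. Bulk tumor was lysed without sorting and came from 4 untreated mice.

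LXR are nuclear receptors that bind DNA together with retinoid X receptors (RXR) and are switched on by oxysterols and by desmosterol, an intermediate of cholesterol synthesis. Without ligand they hold corepressors at their target genes, and with ligand they exchange them for coactivators. LXR beta is made in most tissues, whereas LXR alpha is best known from liver, fat and macrophages. Their targets carry cholesterol out of the cell, lower its uptake and raise fatty acid synthesis, a programme studied above all in lipid-laden macrophages.

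Promoter sequences are shown for the receptor whose mRNA moved with treatment and for the targets whose promoter held the LXR response element. The element searched was GGTTA and GGTCA separated by 5 bases, on both strands, in the 250 bases before each start annotated by RefSeq on GRCm38.p6. Windows were at hand for 5 of the 7 genes, 8 windows in all, and 2 genes held the element. It stood in 15 of 32851 windows of all genes (0.0457%). The capitals mark the match, which on the strand printed reads as the reverse complement of the element. The windows of Abca1 (chr4:53159896-53160145, minus strand), of the third annotated start of Srebf1 (chr11:60210472-60210721, minus strand) and of Nr1h3 (chr2:91195117-91195366, minus strand, no match) are printed from 5′ to 3′.
Abca1: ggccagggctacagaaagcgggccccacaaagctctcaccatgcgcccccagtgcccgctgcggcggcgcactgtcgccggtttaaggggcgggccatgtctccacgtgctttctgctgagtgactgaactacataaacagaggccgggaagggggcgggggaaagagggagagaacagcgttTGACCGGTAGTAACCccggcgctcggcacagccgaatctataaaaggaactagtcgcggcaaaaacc
Srebf1: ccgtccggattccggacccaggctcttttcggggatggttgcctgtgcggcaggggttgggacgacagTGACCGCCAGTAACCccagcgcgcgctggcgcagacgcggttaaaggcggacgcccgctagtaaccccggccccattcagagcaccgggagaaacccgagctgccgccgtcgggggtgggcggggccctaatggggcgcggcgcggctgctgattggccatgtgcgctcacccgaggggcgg
Nr1h3: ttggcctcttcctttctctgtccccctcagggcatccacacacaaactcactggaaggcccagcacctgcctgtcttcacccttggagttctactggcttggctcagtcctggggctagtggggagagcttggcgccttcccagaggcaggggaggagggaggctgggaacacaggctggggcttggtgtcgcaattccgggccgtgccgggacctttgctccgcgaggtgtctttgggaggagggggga
The first base of the match lay at -67 in Abca1 and at -182 in Srebf1, counted back from the start. Abca1 also held an E-box (CACGTG), a motif found in 6.02% of all windows. Neither GAAA repeated after 2 bases (2.98% of windows), as in interferon elements, nor TTC and GAA separated by 3 bases (7.02%), as in STAT elements, was found in any window of the 5 genes. A match is a run of letters and not a measured binding site, and its absence says only that these letters are not in the window.

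MDSC libraries held 793070 to 4357105 counts (median 2459368) and bulk tumor 3771590 to 8886115. Levels are CPM (the count divided by the library total and multiplied by 1e6) after adjustment with TMM factors over all 34 libraries. Libraries are numbered within a group in the order of the running number in the table. Per the study, each group holds 3 to 4 mice, so the p-values measure the spread between animals together with that of the preparation. A count of 3 equals 3.78 CPM in the smallest MDSC library and 0.689 CPM in the largest, and such limits cover counting error only. A gene was called higher or lower at an adjusted p under 0.05 in edgeR's quasi-likelihood test with Benjamini-Hochberg adjustment over all genes tested, and each comparison used its own 2 groups. Fold changes are on the log2 scale with their standard error (SE).

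Marker genes were examined before the LXR genes, since sorted fractions can hold RNA of other cells. The summed level of 11 neutrophil genes was 26165 to 49712 CPM in untreated splenic PMN-MDSC. In untreated PMN-MDSC from tumor it was 1413 to 5261 CPM, overlapping the 3598 to 8682 CPM of splenic M-MDSC, and in untreated tumor M-MDSC it was 251 to 833 CPM. Ly6g, the gene of the antigen used in the gate, was at 36.7 to 97.0 CPM in untreated PMN-MDSC from spleen and at 0 to 9.19 CPM in those from tumor. The 9 tumor macrophage genes summed to 3260 to 4633 CPM in untreated tumor PMN-MDSC and to 1836 to 3090 CPM in tumor M-MDSC, with C1qa at 486 to 612 and 128 to 330 CPM. The libraries labelled PMN-MDSC from tumor thus carried fewer neutrophil transcripts and more macrophage transcripts than their label names, and the gate names are kept here only as labels. The study itself reports a high mean purity of the sorted cells, and a low tumor cell contamination judged by cytokeratin expression. In bulk RNA of this kind, fewer cells of a type and less RNA per cell cannot be told apart. One library of treated splenic M-MDSC, number 4, held 12418 CPM of 6 B cell genes, against 124 to 379 CPM in the other 3.

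Nr1h3, the gene of LXR alpha (chr2:91184061-91202834 on GRCm38, minus strand), showed the largest response to poly(I:C)c of the 7 genes in 3 of the 4 cell populations. In splenic M-MDSC its level was 25.2, 16.3, 20.5 and 27.5 CPM in untreated mice and 135, 209, 221 and 172 CPM in treated mice. The groups were far apart, with every treated library above every untreated one. The log2 fold change was 2.99 (SE 0.21), a 7.93-fold higher level with an adjusted p of 2.7e-05. Without the library rich in B cell transcripts it was 3.03 (adjusted p = 5.25e-05).

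In M-MDSC from tumor, Nr1h3 stood at 8.45, 15.6, 11 and 12.2 CPM without treatment and at 73.7, 154 and 215 CPM with it. The groups did not overlap, although library 2 of the treated group, at 73.7 CPM, lay well below the others. The log2 fold change was 3.62 (SE 0.39, adjusted p = 0.00428), and 3.94 (adjusted p = 0.00166) without that library. In PMN-MDSC from tumor the level was 18.1, 11.9, 11.6 and 16.6 CPM in untreated and 101, 97.8, 53.5 and 57.4 CPM in treated mice. Again all treated libraries exceeded all untreated ones, by a log2 fold change of 2.34 (SE 0.27, adjusted p = 0.00111).

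Splenic PMN-MDSC differed from the other 3 populations. Nr1h3 was at 36.4, 23.1, 4.66 and 16 CPM in untreated mice and at 16.5, 5.98 and 7.52 CPM in treated mice. The ranges overlapped, the counts behind the values were low (11 to 20 fragments in the treated libraries), and the log2 fold change of -1.04 (SE 0.69) was not called (adjusted p = 0.374). The difference between the treatment effects was tested itself. In PMN-MDSC, the effect in tumor exceeded that in spleen by 3.41 on the log2 scale (SE 0.72, adjusted p = 0.0197), and this call was lost without library 2 or library 3 of the treated splenic group (adjusted p = 0.0503 and 0.0733). In spleen, the effect in M-MDSC exceeded that in PMN-MDSC by 3.98 (SE 0.68, adjusted p = 0.00385). For tumor against spleen in M-MDSC, and for M-MDSC against PMN-MDSC in tumor, the differences of 0.66 (SE 0.44) and 1.28 (SE 0.48) were not called (adjusted p = 0.526 and 0.529).

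Marker genes moved in the same splenic PMN-MDSC libraries. After treatment, 5 of 10 red pulp macrophage genes and 4 of the 5 tumor macrophage genes tested were lower, and the sum of the 10 red pulp genes was 1247 to 2193 CPM in untreated and 627 to 1135 CPM in treated mice. The 7 dendritic cell genes summed to 227 to 971 CPM in untreated and 10.5 to 17.9 CPM in treated mice, in splenic M-MDSC to 293 to 650 and 39.9 to 90.9 CPM, and in tumor PMN-MDSC to 1141 to 1515 and 71.8 to 473 CPM, with H2-Ab1 called lower in these 3 populations. The neutrophil sum was 26165 to 49712 CPM without and 51523 to 100131 CPM with treatment, with 5 of 11 genes called higher, and 5 of 8 monocyte genes tested were lower and 2 higher. Among the untreated libraries, number 1 had the highest Nr1h3 (36.4 CPM), Abca1 and Scd2, the highest red pulp macrophage sum (2193 CPM) and the lowest neutrophil sum (26165 CPM), and number 3, with the lowest Nr1h3 (4.66 CPM), had the lowest red pulp sum (1247 CPM) and the highest neutrophil sum (49712 CPM). The part of these transcripts in the Nr1h3 levels was not tested. In treated splenic M-MDSC the 9 tumor macrophage genes summed to 175 to 343 CPM against 176 to 414 CPM in untreated mice, although 4 of the 7 tested (C1qb, C1qc, Gpnmb and Spp1) were called higher and Mrc1 lower. In tumor M-MDSC they summed to 2435 to 7471 against 1836 to 3090 CPM, with C1qa at 368 to 2101 against 128 to 330 CPM, and library 3, with the most Abca1, had the highest sum. The 4 marginal zone macrophage genes summed to 251 to 547 CPM against 58.1 to 83.6 CPM, almost all of it Siglec1, which is also interferon-inducible, and Cd209b was at 0. In tumor M-MDSC they summed to 619 to 771 against 117 to 240 CPM, and in tumor PMN-MDSC to 376 to 778 against 119 to 219 CPM. The 5 endothelial genes summed to 21.1 to 29.2 CPM without and 117 to 277 CPM with treatment in splenic M-MDSC, and to 19.6 to 42.3 and 72.1 to 151 CPM in tumor M-MDSC, with Kdr called higher in both. The monocyte sum in tumor M-MDSC was 5229 to 6942 CPM without and 3282 to 4265 CPM with treatment, with 0 of 9 genes called. The part of these lists in the rise of Nr1h3, and in the treatment differences of Abca1 and Abcg1, was not tested.

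Nr1h2, the gene of LXR beta (chr7:44549616-44553951, minus strand), was not called in any treatment comparison. In splenic M-MDSC it was at 63.7, 76.4, 78.9 and 69.1 CPM in untreated and 74.7, 89.3, 84.9 and 79.4 CPM in treated mice. Its log2 fold changes were 0.14 in splenic M-MDSC (SE 0.11, adjusted p = 0.406), 0.07 in tumor M-MDSC (SE 0.20, adjusted p = 0.901), 0.20 in tumor PMN-MDSC (SE 0.20, adjusted p = 0.657) and 0.32 in splenic PMN-MDSC (SE 0.19, adjusted p = 0.301). Group means spanned 65.1 to 132 CPM over the 8 MDSC groups, and every pair of neighbours in the order of means overlapped in range. Splenic PMN-MDSC from treated mice were highest with 131, 123 and 140 CPM.

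**Figure D1:**
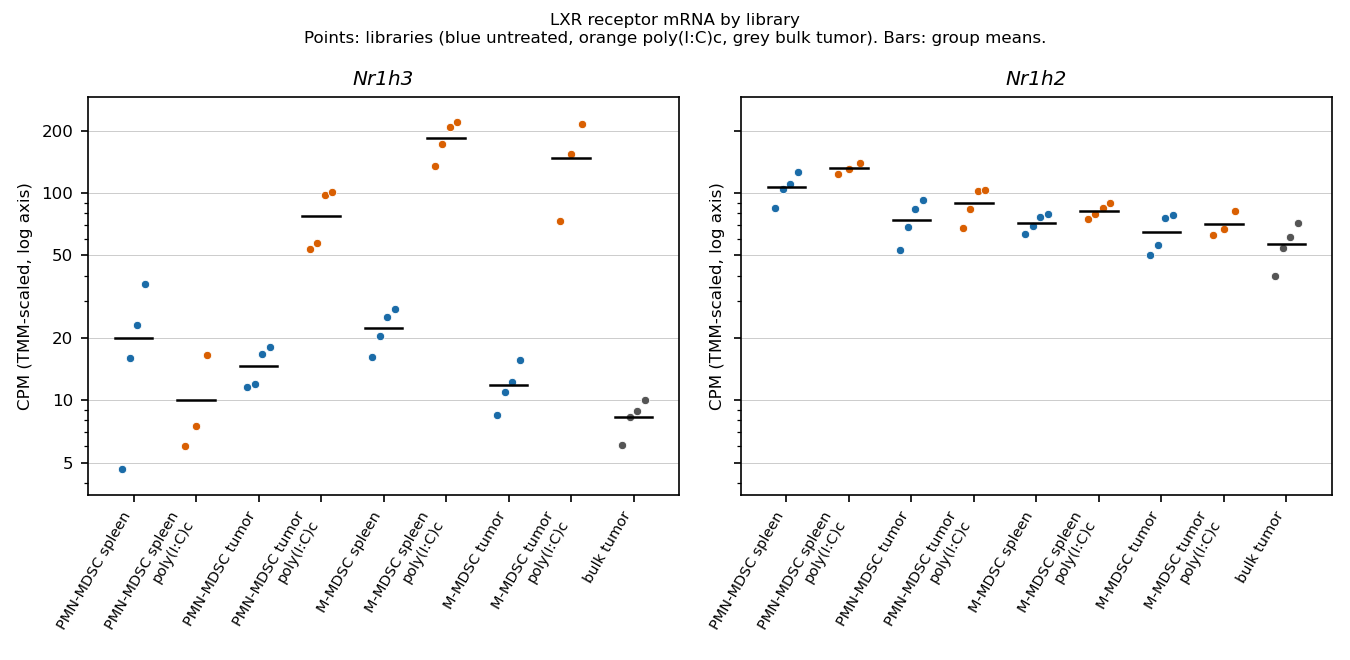
Level of the 2 LXR receptor genes in each of the 34 libraries (points; CPM on a log axis), with group means as bars, for untreated and poly(I:C)c-treated MDSC and bulk tumor. Nr1h3 lay at 53.5 CPM or more in all treated libraries except those of splenic PMN-MDSC and at 36.4 CPM or less elsewhere, whereas Nr1h2 lay between 39.8 and 140 CPM throughout.

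The balance of the receptors shifted accordingly. Per kilobase of exon sequence, the level of Nr1h3 divided by that of Nr1h2 was 0.268 ± 0.219 in splenic PMN-MDSC, 0.271 ± 0.0781 in tumor PMN-MDSC, 0.422 ± 0.126 in splenic M-MDSC and 0.258 ± 0.108 in tumor M-MDSC of untreated mice (SD, n = 4 each). In treated mice it was 2.98 ± 0.445 in splenic M-MDSC (SD, n = 4), 2.92 ± 1.57 in tumor M-MDSC (SD, n = 3) and 1.24 ± 0.628 in tumor PMN-MDSC (SD, n = 4). LXR alpha mRNA therefore exceeded LXR beta mRNA in all treated M-MDSC libraries (lowest ratio 1.19), while in treated tumor PMN-MDSC the ratio ranged from 0.696 to 1.97. In treated splenic PMN-MDSC it was 0.101 ± 0.0576 (SD, n = 3).

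Among the targets, treatment called only Abca1 in splenic M-MDSC and Abcg1 in tumor M-MDSC, both higher. The cholesterol efflux pump Abca1 (chr4:53030787-53159895, minus strand), which loads cholesterol onto apolipoprotein A-I, differed mainly by compartment. Untreated splenic PMN-MDSC held 87.3, 28.6, 22.1 and 50.2 CPM and untreated tumor PMN-MDSC 687, 447, 583 and 466.05 CPM. Untreated splenic M-MDSC held 21.2, 6.91, 19.8 and 20.9 CPM and tumor M-MDSC 282, 168, 334 and 254 CPM. Spleen and tumor did not overlap in either cell type. The log2 fold change of tumor over spleen was 3.63 in PMN-MDSC (SE 0.40, adjusted p = 4.4e-05) and 3.93 in M-MDSC (SE 0.31, adjusted p = 3.1e-06). In treated mice it was 3.29 (SE 0.54, adjusted p = 0.00133) and 3.28 (SE 0.53, adjusted p = 0.0106), the last of which was lost without library 1 of treated splenic M-MDSC (adjusted p = 0.0535).

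The macrophage markers moved with the same contrast. In untreated M-MDSC the 9 tumor macrophage genes summed to 176 to 414 CPM in spleen and 1836 to 3090 CPM in tumor, with 7 of 8 tested genes higher, and in untreated PMN-MDSC they rose from 281 to 708 CPM to 3260 to 4633 CPM, with 7 of 8 higher. All 11 neutrophil genes were lower in tumor PMN-MDSC. In treated mice the tumor macrophage sum was 197 to 253 CPM in splenic and 3300 to 5724 CPM in tumor PMN-MDSC, with 8 of 9 genes higher and 10 of 11 neutrophil genes lower. In treated M-MDSC it was 175 to 343 and 2435 to 7471 CPM, with 6 of 9 higher. In treated mice 4 red pulp macrophage genes (Adgre1, Cd163, Mrc1 and Vcam1) were higher in tumor in both cell types, and 2 (Slc40a1 and Treml4) were lower in PMN-MDSC. In untreated mice 2 red pulp genes (Adgre1 and Mrc1) were higher in tumor in both cell types, with 6 lower in PMN-MDSC and 4 lower in M-MDSC. The part of these cells in the tumor against spleen differences was not tested.

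Within a compartment, Abca1 responded to treatment in 1 population. Treated splenic M-MDSC held 46.6, 22.3, 65.7 and 65.9 CPM, all above the highest untreated library at 21.2 CPM. The log2 fold change was 1.48 (SE 0.41, adjusted p = 0.0323). Leaving out any 1 of 7 of the 8 libraries raised the adjusted p to between 0.0520 and 0.0737, and with library 2 of the treated group left out it was 0.00846, and with no filter on low counts it was 0.154. Tumor M-MDSC of treated mice held 217, 836 and 388 CPM, wider than the untreated range of 168 to 334 CPM and overlapping it, with a log2 fold change of 0.84 (SE 0.41, adjusted p = 0.305). Without library 3 of that group it was 0.20 (adjusted p = 0.792), and with no filter on low counts the change was called (adjusted p = 0.0198). Tumor PMN-MDSC of treated mice held 574, 534, 559 and 656 CPM, inside the untreated range of 447 to 687 CPM, and splenic PMN-MDSC 17.4, 46.8 and 123 CPM. Their log2 fold changes were 0.02 (SE 0.19, adjusted p = 0.970) and 0.39 (SE 0.64, adjusted p = 0.741).

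Abcg1 (chr17:31057675-31117988, plus strand), which passes cholesterol to high-density lipoprotein, moved in tumor. In tumor M-MDSC it was at 104, 126, 137 and 103 CPM in untreated and at 231, 341 and 214 CPM in treated mice. The groups did not overlap, and the log2 fold change was 1.11 (SE 0.21, adjusted p = 0.0305). This call was lost without any 1 of the 4 untreated libraries or without treated library 4 (adjusted p of 0.0661 to 0.106). In tumor PMN-MDSC it was at 109, 166, 176 and 177.4 CPM without and at 234, 277, 277 and 237 CPM with treatment. These groups did not overlap either, but the log2 fold change of 0.64 (SE 0.18) was not called (adjusted p = 0.0832). It was called by DESeq2 (0.0142), with no filter on low counts (0.0395) and with all 8 groups in one fit (0.0492). The neutrophil sum in tumor PMN-MDSC was 1413 to 5261 CPM without and 4377 to 12686 CPM with treatment, with 0 of 11 genes called. Untreated library 1, with the lowest Abcg1 and Mylip (109 and 35.1 CPM), also had the lowest neutrophil sum (1413 CPM). The part of neutrophil transcripts in these levels was not tested.

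In spleen, Abcg1 was not called for treatment under the same settings. Splenic PMN-MDSC held 249, 283, 282 and 287 CPM in untreated and 167, 239 and 191 CPM in treated mice, a log2 fold change of -0.45 (SE 0.18, adjusted p = 0.140). Under upper-quartile scaling it was -0.63 and called (adjusted p = 0.0419). The treatment effect in PMN-MDSC differed between tumor and spleen by 1.12 (SE 0.26, adjusted p = 0.0280), a call lost without library 3 of the treated splenic group (0.0935), library 2 of the treated tumor group (0.0623) or library 3 of the untreated tumor group (0.0522). Splenic M-MDSC held 176, 132, 161 and 132 CPM and, after treatment, 175, 176, 207 and 116 CPM, where the lowest value belongs to the library rich in B cell transcripts. The log2 fold change was 0.12 (SE 0.18, adjusted p = 0.686), and 0.28 (adjusted p = 0.226) without that library. In M-MDSC the effect in tumor exceeded that in spleen by 1.02 (SE 0.28), a difference that was not called (adjusted p = 0.112), although DESeq2 called it. In untreated mice Abcg1 was lower in tumor than in splenic PMN-MDSC by a log2 fold change of -0.71 (SE 0.18, adjusted p = 0.00589), the opposite direction to Abca1.

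Mylip (chr13:45389742-45412022, plus strand) encodes IDOL, a ubiquitin ligase that sends the LDL receptor to degradation. In untreated spleen it was higher in the PMN-MDSC gate than in the M-MDSC gate. Splenic PMN-MDSC held 106, 120, 123 and 152 CPM and splenic M-MDSC 26.1, 21.5, 33.7 and 36.7 CPM in untreated mice. The cell types were well separated, with a log2 fold change of -2.03 for M-MDSC over PMN-MDSC (SE 0.19, adjusted p = 2.1e-05). In untreated tumor the values were 35.1, 83.0, 89.9 and 101 CPM and 16.9, 22.1, 49.1 and 44.0 CPM, which overlap, with a log2 fold change of -1.31 (SE 0.38, adjusted p = 0.0466). That call was lost without library 2, 3 or 4 of tumor PMN-MDSC or library 1, 2 or 4 of tumor M-MDSC (adjusted p of 0.0740 to 0.115).

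Under the settings given for the test above, Mylip was not called in any treatment comparison. Treated tumor M-MDSC held 36.3, 109 and 98.9 CPM, so that the first library lay within the untreated range and the others above it, and the log2 fold change was 1.26 (SE 0.46, adjusted p = 0.172). It was called with no filter on low counts (adjusted p = 2.5e-04) and with all 8 groups in one fit (0.0253). Treated splenic PMN-MDSC held 115, 71.2 and 69.1 CPM with a log2 fold change of -0.53 (SE 0.25, adjusted p = 0.209), and without library 1 of that group it was -0.84 and was then called (adjusted p = 0.0345). Treated splenic M-MDSC stayed between 27.5 and 35.7 CPM and treated tumor PMN-MDSC between 70.7 and 123 CPM, with log2 fold changes of 0.11 (SE 0.18, adjusted p = 0.700) and 0.33 (SE 0.30, adjusted p = 0.605).

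Srebf1 (chr11:60199089-60222581, minus strand) encodes SREBP-1, the transcription factor that drives fatty acid synthesis, and was the steadiest target. Untreated splenic PMN-MDSC held 40.7, 32.2, 35.3 and 32.7 CPM and untreated splenic M-MDSC 63.7, 69.5, 58.1 and 52.2 CPM. These ranges did not overlap, and the log2 fold change was 0.83 (SE 0.15, adjusted p = 0.00129). The treatment fold changes lay between -0.33 (SE 0.35) in tumor M-MDSC and 0.14 (SE 0.21) in splenic PMN-MDSC, with adjusted p-values of 0.669 to 0.863. Treated tumor M-MDSC held 82.7, 42.7 and 36.9 CPM, and tumor against spleen was not called in any of its 4 comparisons (adjusted p of 0.166 to 0.620).

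Scd2 (chr19:44293674-44306864, plus strand), a stearoyl-CoA desaturase that introduces the double bond of monounsaturated fatty acids, was not called in any treatment comparison under the settings given for the test. In tumor PMN-MDSC it was at 85.0, 91.8, 61.1 and 56.4 CPM in untreated and at 47.2, 47.4, 32.6 and 24.4 CPM in treated mice. All treated libraries lay below all untreated ones, with a log2 fold change of -1.02 (SE 0.26), which was not called (adjusted p = 0.0570). The 6 epithelial tumor genes summed to 126 to 711 CPM in the untreated and 76.6 to 178 CPM in the treated libraries, with Cdh1 called lower, and their part in the Scd2 levels was not tested. In tumor M-MDSC it was at 113, 142, 83.4 and 125 CPM without and at 114, 45.5 and 37.6 CPM with treatment. Here the treated library 2, the one with the least Nr1h3, Abca1 and Mylip, had the most Scd2 and Srebf1 of its group and lay inside the untreated range. The log2 fold change was -0.88 (SE 0.39, adjusted p = 0.261), and without that library -1.52 and called (adjusted p = 0.0227). It was also called with no filter on low counts. The epithelial tumor sum in tumor M-MDSC was 101 to 317 CPM without and 70.0 to 102 CPM with treatment, with Cdh1 called lower, and its part was not tested. Splenic PMN-MDSC held 57.9, 27.4, 15.5 and 22.9 CPM and, treated, 22.3, 8.16 and 13.0 CPM, with a log2 fold change of -1.12 (SE 0.55, adjusted p = 0.230). It was called there with no filter on low counts (adjusted p = 0.0468). Splenic M-MDSC stayed at -0.14 (SE 0.29, adjusted p = 0.779).

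Scd2 was also higher in tumor than in splenic PMN-MDSC, by a log2 fold change of 1.34 in untreated (SE 0.37, adjusted p = 0.0101) and 1.46 in treated mice (SE 0.41, adjusted p = 0.0158), and the latter call was lost without library 2 or 3 of treated splenic PMN-MDSC (adjusted p = 0.0556 and 0.0592). The epithelial tumor sum was 0.388 to 3.04 CPM in untreated splenic and 126 to 711 CPM in untreated tumor PMN-MDSC, with 4 of 4 genes tested higher, and 3 of 3 were higher in treated mice. Their part in the Scd2 difference was not tested. In untreated spleen it was higher in M-MDSC than in PMN-MDSC by 1.4 (SE 0.37, adjusted p = 0.00813).

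**Figure D2:**
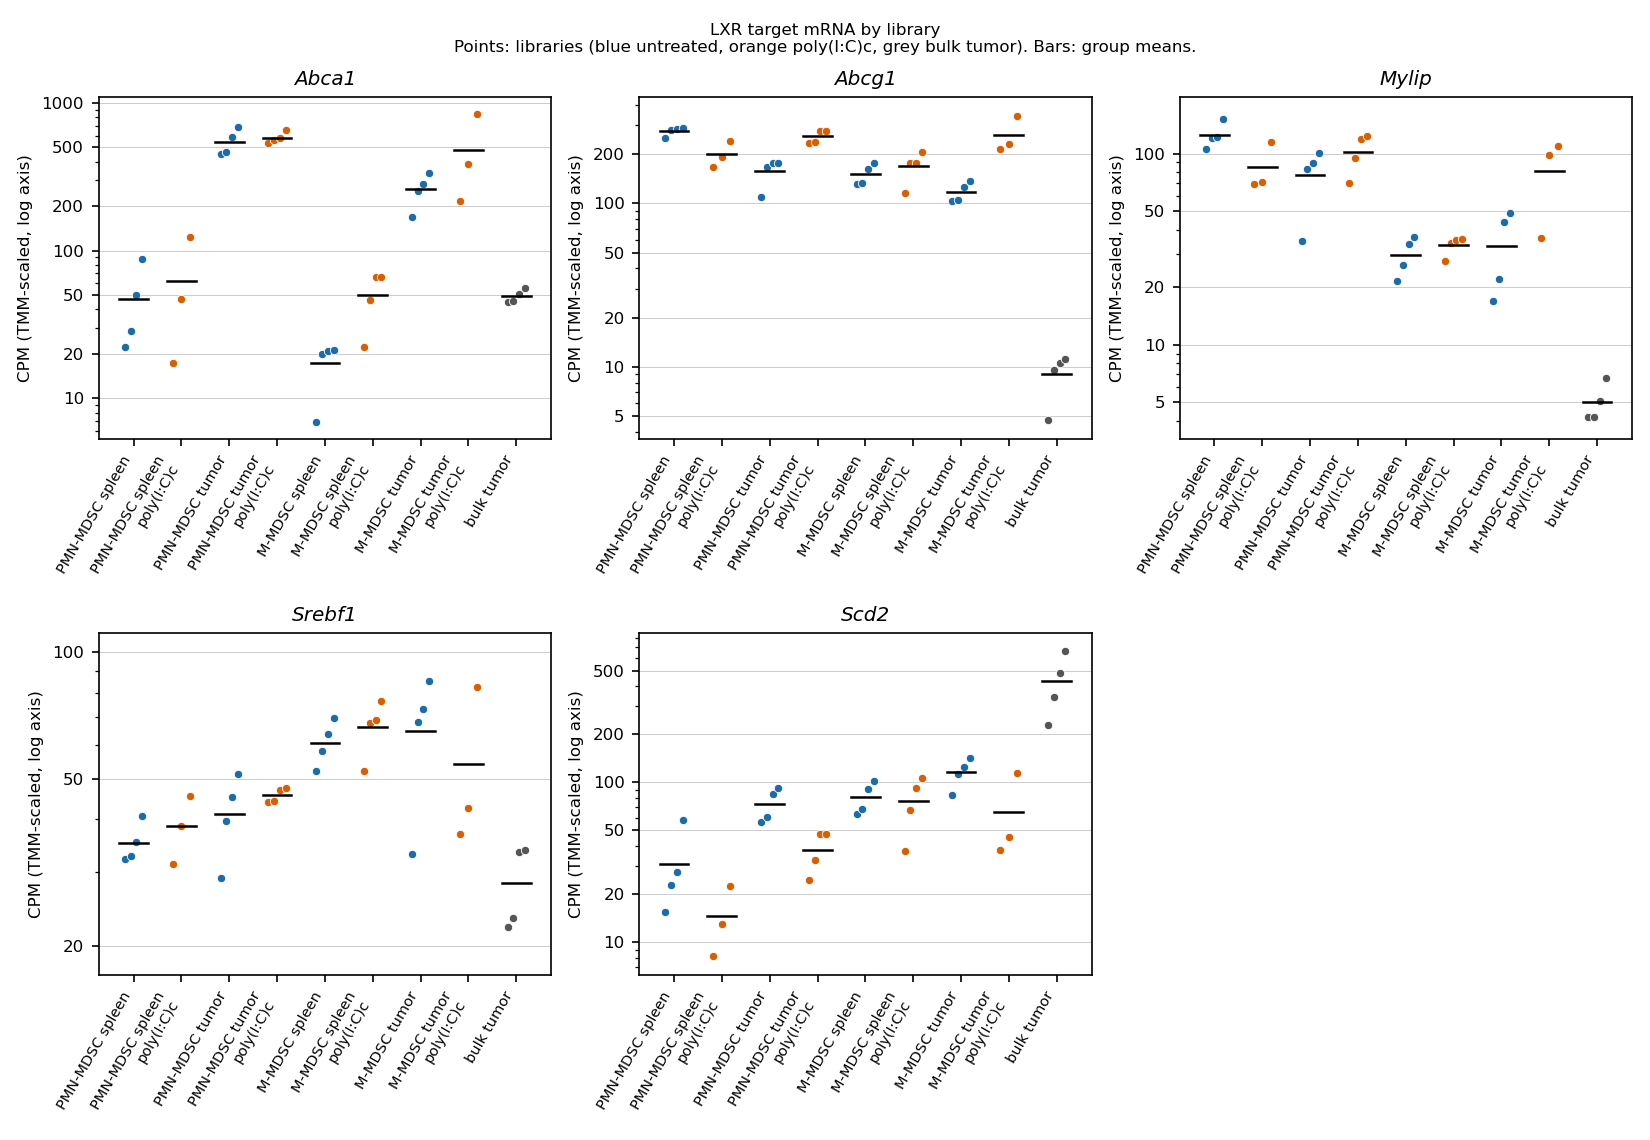
Level of the 5 LXR target genes in each library (points; CPM on log axes that differ between panels), with group means as bars. Abca1 was at 123 CPM or less in all splenic libraries and at 168 CPM or more in all tumor MDSC libraries, and Scd2 was highest in bulk tumor at 227 to 659 CPM.

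Counted over the set, treatment called 0 of 7 genes in splenic PMN-MDSC, where 6.1% of all genes tested were called higher and 5.52% lower. Abcg1 alone had an unadjusted p under 0.05 there in edgeR's quasi-likelihood test, and DESeq2 called 0 of 7. In tumor PMN-MDSC 1 of 7 was called, Nr1h3, higher, against 2.29% of all genes called higher and 1.07% lower. In splenic M-MDSC 2 of 7 were called higher (Nr1h3 and Abca1) and 0 lower, against 10.7% and 8.96%. In tumor M-MDSC 2 of 7 were called higher (Nr1h3 and Abcg1) and 0 lower, against 1.82% and 1.06%. The median log2 fold change of the 7 genes in these 4 comparisons was -0.45, 0.20, 0.12 and 0.84, where that of all genes tested was 0.01, 0.01, -0.01 and 0.00. In splenic PMN-MDSC the split of calls over all genes depended on the scaling, with 52.5% of calls higher by TMM and 35.6% by upper quartile. Because the genes were picked with these contrasts in view, nothing is read from their counts.

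Tumor against spleen called Abca1 and Scd2 higher and Abcg1 lower in untreated PMN-MDSC, where 29.4% of all genes were called higher and 29.7% lower. In treated PMN-MDSC it called Nr1h3, Abca1 and Scd2 higher and 0 genes lower, against 28.2% and 25.4%. Nr1h3 was at 53.5 to 101 CPM in tumor and at 5.98 to 16.5 CPM in spleen there, with a log2 fold change of 3.05 (SE 0.44, adjusted p = 7.5e-04). Tumor macrophage genes were higher, neutrophil genes lower and red pulp macrophage genes mixed in the same contrast, as given for Abca1. Marco and Siglec1 were also higher, and the part of these genes was not tested. In untreated M-MDSC it called Abca1 higher and Nr1h3 lower, against 15.7% and 12.7%. This fall of Nr1h3, by 0.92 on the log2 scale (SE 0.26, adjusted p = 0.0203), was lost without library 1 or 4 of splenic M-MDSC or library 1 or 3 of tumor M-MDSC (adjusted p of 0.0565 to 0.0712), and with all 8 groups in one fit (0.147). Of the red pulp macrophage genes, 4 (Hpgd, Slc40a1, Spic and Treml4) were lower and 2 (Adgre1 and Mrc1) higher in the same contrast, and their part was not tested. In treated M-MDSC only Abca1 of the 7 was called, higher, against 5.11% higher and 0.764% lower. Mylip differed there by 1.32 (SE 0.34, adjusted p = 0.0647), and was called by DESeq2 (0.00888), with no filter (1.3e-06), in one fit of all groups (0.0106) and without library 2 of treated tumor M-MDSC (0.00363). Under upper-quartile scaling the share of all calls that were higher moved from 52.6% to 64.4% in treated PMN-MDSC and from 55.2% to 39.3% in untreated M-MDSC.

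M-MDSC against PMN-MDSC in untreated spleen called Srebf1 and Scd2 higher and Nr1h2, Abca1, Abcg1 and Mylip lower, where 33.4% of all genes were called higher and 30.9% lower. In the M-MDSC gate 6 of 10 red pulp macrophage genes were lower and 1 higher, and 4 of 5 tumor macrophage genes tested were lower, and their part was not tested. A majority of all genes differed there, and 64.5% of the calls were higher by upper-quartile scaling against 51.9% by TMM. The difference of Nr1h2, -0.51 (SE 0.14, adjusted p = 0.0112), was lost under that scaling (adjusted p = 0.140) and without library 4 of splenic M-MDSC (adjusted p = 0.0560). That of Abca1, -1.42 (SE 0.47, adjusted p = 0.0225), was lost without library 1 of PMN-MDSC (adjusted p = 0.0633) or library 2 of M-MDSC (adjusted p = 0.0514). Abcg1 was lower by a log2 fold change of -0.82 (SE 0.14, adjusted p = 7.0e-04). In untreated tumor, Abca1 and Mylip were called lower and 0 genes of the set higher, against 7.25% and 5.73% of all genes. Abca1 differed by -1.15 (SE 0.21, adjusted p = 0.00289), and the call was lost when all 8 MDSC groups were fitted together (adjusted p = 0.107). C1qa, C1qb, C1qc and Spp1 were lower in the M-MDSC gate too, and their part was not tested.

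The tests of a difference between treatment effects called 2 of 7 genes for tumor against spleen in PMN-MDSC (Nr1h3 and Abcg1) against 3.5% of all genes, 0 of 7 for the same in M-MDSC against 0.79%, 1 of 7 (Nr1h3) for M-MDSC against PMN-MDSC in spleen against 10.9%, and 0 of 7 for the same in tumor against 0.0239%. For the contrasts with 0 calls, 2 of 7 genes in M-MDSC (Abcg1 and Mylip) and 1 of 7 in tumor (Nr1h3) had an unadjusted p under 0.05 in edgeR's quasi-likelihood test, and DESeq2 called 1 (Abcg1) and 0.

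**Figure D3:**
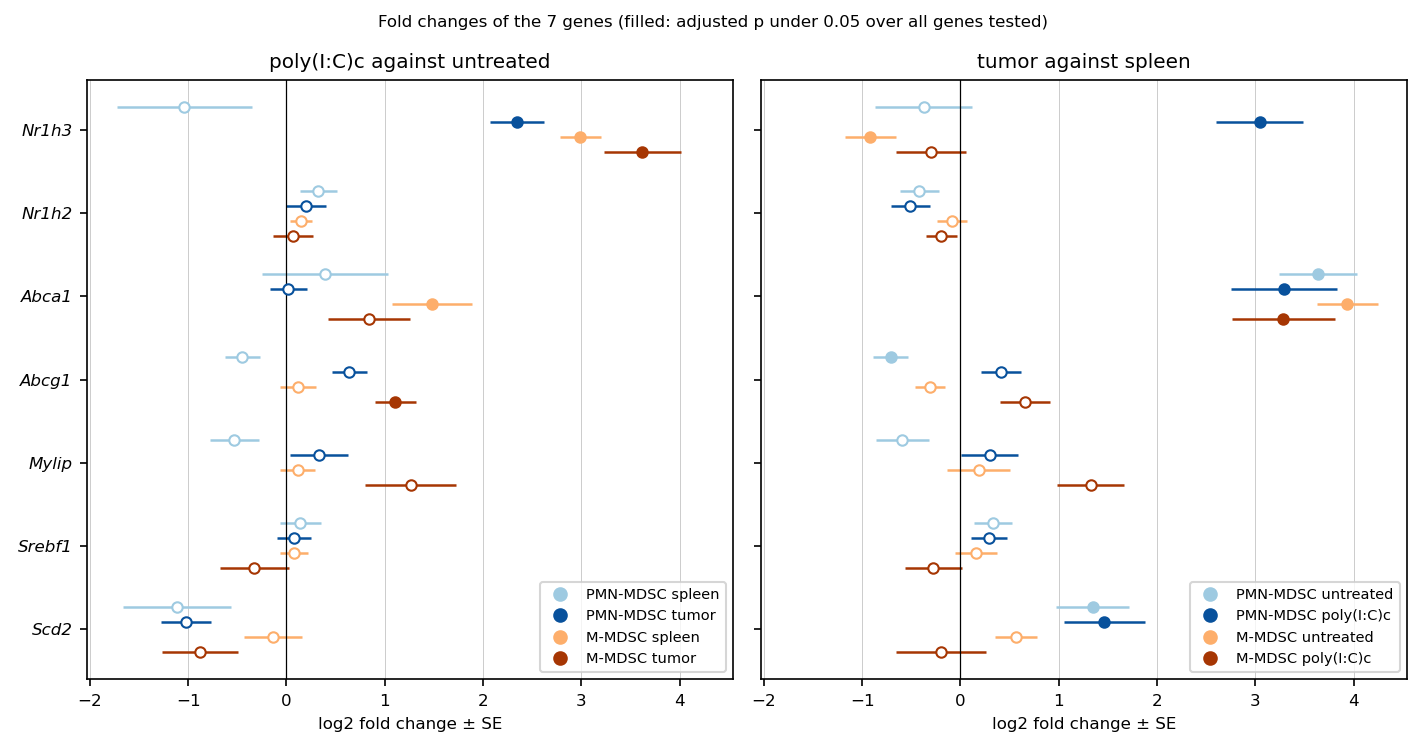
Log2 fold changes (points) with their SE (bars) of the 7 genes, for poly(I:C)c against untreated on the left and tumor against spleen on the right, with filled points where the adjusted p over all genes tested was under 0.05. Nr1h3 stands at 2.34 to 3.62 in 3 treatment comparisons and at -1.04 in splenic PMN-MDSC, and Abca1 stands at 3.28 to 3.93 in all 4 tumor against spleen comparisons.

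Levels can be set side by side between genes only per length. Per kilobase of exon, Abca1 led the set in untreated tumor PMN-MDSC (52.7 ± 10.8 CPM per kb, SD, n = 4) and had the highest mean in tumor M-MDSC (25 ± 6.69), within the spread of Scd2 (21.2 ± 4.5) and Nr1h2 (19.4 ± 4.24), and was the lowest of the 7 in untreated splenic M-MDSC (1.66 ± 0.665). Mylip (38.8 ± 5.86) and Abcg1 (37.7 ± 2.40) led in untreated splenic PMN-MDSC, and Nr1h2 (21.5 ± 2.07) and Abcg1 (20.6 ± 3.01) in untreated splenic M-MDSC. After treatment Nr1h3 led in splenic M-MDSC at 73.4 ± 15.5 CPM per kb, and in tumor M-MDSC its mean of 58.8 ± 28.3 (SD, n = 3) was followed by Abca1 at 46.3 ± 30.9, a difference within the spread.

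**Figure D4:**
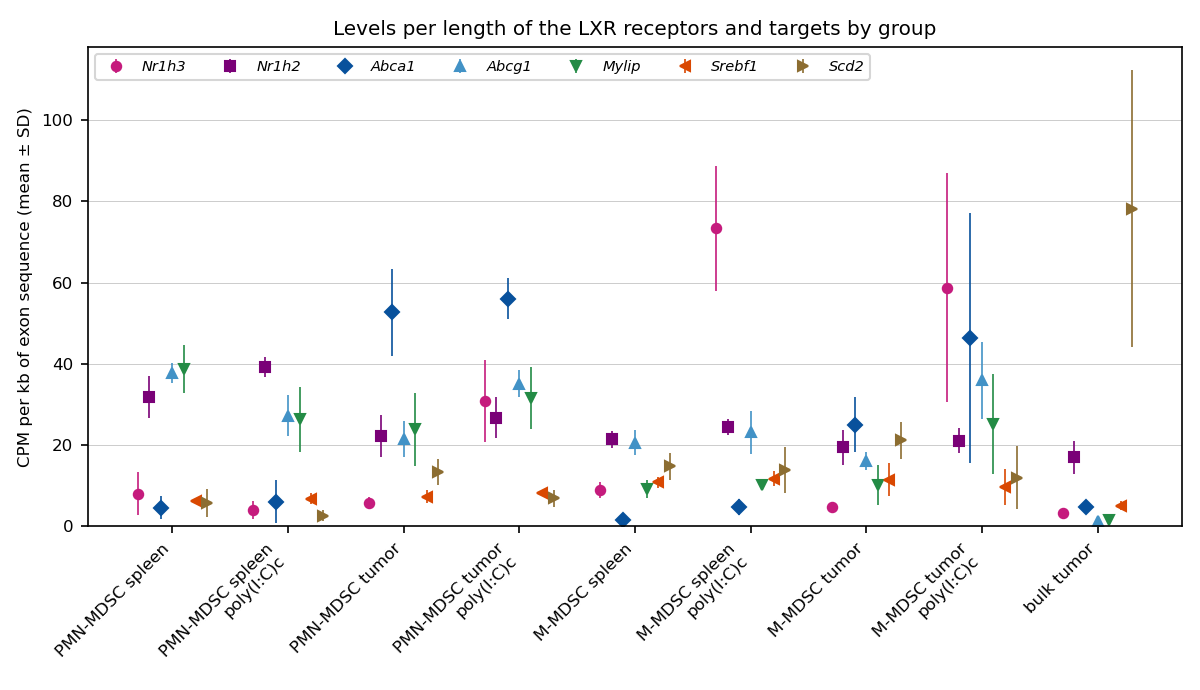
Mean level (points) and SD (bars) of the 7 genes in CPM per kilobase of exon sequence in each group. Nr1h3 rises to the top of the set in treated M-MDSC, Abca1 stands apart in tumor PMN-MDSC, and Scd2 exceeds the other 6 genes in bulk tumor at 78.3 CPM per kb.

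Bulk tumor gives the surrounding tissue as a background, with no test, since cell mixture and RNA preparation differ from sorted cells. Nr1h3 was at 6.08, 8.9, 8.28 and 10.1 CPM there and Nr1h2 at 61.6, 71.7, 54.6 and 39.8 CPM. Nr1h2 overlapped both untreated tumor MDSC populations, and Nr1h3 overlapped M-MDSC and lay below PMN-MDSC. Abca1 was at 55.4, 44.7, 51.1 and 45.8 CPM, 11.1 times lower than in tumor PMN-MDSC and 5.27 times lower than in tumor M-MDSC. Abcg1 was at 4.73, 10.6, 9.57 and 11.2 CPM and Mylip at 4.19, 4.20, 5.05 and 6.67 CPM. Both lay below every MDSC library, for Abcg1 by 17.4 and 13.0 times and for Mylip by 15.4 and 6.57 times on average in tumor PMN-MDSC and M-MDSC. Scd2 went the other way with 485, 659, 340 and 227 CPM, 5.81 times the mean of tumor PMN-MDSC and 3.69 times that of tumor M-MDSC. Srebf1 was at 23.4, 22.2, 33.4 and 33.8 CPM, overlapping both. The 6 epithelial tumor genes summed to 4550 to 6236 CPM in bulk tumor and to 101 to 711 CPM in untreated tumor MDSC.

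RXR and the cofactors of LXR were examined as a list of 13 genes, of which 12 were tested in each comparison. Treatment called 1 lower in splenic PMN-MDSC (Nrip1, RIP140, -3.28, SE 0.78, adjusted p = 0.0302) and 2 lower in splenic M-MDSC (Rxra, -1.47, SE 0.28, adjusted p = 0.00647, and Tbl1xr1, a subunit of the corepressor complex, -0.58, SE 0.13, adjusted p = 0.0112), with 0 higher in any population and 0 called in tumor. Of all genes, 5.52% and 8.96% were called lower in these 2 splenic comparisons, so that the list's counts lie near the background. The DNA-binding partner Rxra thus fell in the population where Nr1h3 rose 7.93-fold, from 65.9 to 100.4 CPM in untreated to 18.3 to 49.2 CPM in treated splenic M-MDSC. Median log2 fold changes of the list were 0.04, 0.04, -0.25 and -0.05 for splenic PMN-MDSC, tumor PMN-MDSC, splenic M-MDSC and tumor M-MDSC.

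A list of 20 further LXR target genes, of which 11 to 13 were tested, did not move in one direction after treatment. In splenic PMN-MDSC 2 were called higher and 6 lower, against 6.1% and 5.52% of all genes, with a median log2 fold change of -1.92 against 0.01. Arl4c, a small GTPase, fell by 2.13 (SE 0.30, adjusted p = 0.00453) and the efferocytosis receptor Mertk fell by 3.21 (SE 0.67, adjusted p = 0.0202), whereas the phosphodiesterase Smpdl3a was higher by 1.63 (SE 0.23, adjusted p = 0.00515). In tumor PMN-MDSC 2 were higher and 0 lower, against 2.29% and 1.07%, the lipid droplet protein Plin2 by 1.48 (SE 0.33, adjusted p = 0.0363) and Smpdl3a by 0.97 (SE 0.22, adjusted p = 0.0388). In splenic M-MDSC 1 was higher and 3 lower, against 10.7% and 8.96%. Mertk rose by 2.41 (SE 0.56, adjusted p = 0.0177), while apolipoprotein E (Apoe) fell by 2.04 (SE 0.35, adjusted p = 0.00379) and the phospholipid transfer protein Pltp fell by 1.04 (SE 0.27, adjusted p = 0.0244). In tumor M-MDSC 0 of 12 were called, against 1.82% higher and 1.06% lower, with a median of 0.74. Red pulp and tumor macrophage markers were also lower in treated splenic PMN-MDSC, and their part in these falls was not tested.

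Tumor against spleen called more genes of this list higher than lower. In untreated PMN-MDSC 9 of 13 were called higher and 1 lower, against 29.4% and 29.7% of all genes, led by Apoe (4.43, SE 0.36, adjusted p = 9.1e-06), the desaturase Fads1 (3.26, SE 0.33, adjusted p = 2.7e-05) and Plin2 (1.93, SE 0.24, adjusted p = 7.9e-05). In untreated M-MDSC 4 of 11 were higher and 0 lower, against 15.7% and 12.7%, with 7 not called and a list median of 0.17, led by Mertk (3.18, SE 0.24, adjusted p = 1.9e-06), Plin2 (1.53, SE 0.14, adjusted p = 6.0e-06) and Apoe (2.72, SE 0.31, adjusted p = 4.9e-05). In treated mice 8 of 13 were higher and 1 lower in PMN-MDSC, against 28.2% and 25.4%. In treated M-MDSC 3 of 13 were higher, 0 lower and 10 not called, against 5.11% and 0.764%, and Apoe was higher by 6.10 (SE 0.73, adjusted p = 0.00332). Apoe is itself abundant in macrophages, and the macrophage markers moved in the same contrasts, as given for Abca1, and their part was not tested. Between cell types in untreated mice, 4 were higher and 3 lower of 13 in splenic M-MDSC, near the 33.4% and 30.9% of all genes, and 1 was higher and 3 lower of 12 in tumor M-MDSC, against 5.73% and 7.25%.

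Of 12 genes of the SREBP pathway, which supplies cholesterol to the cell, treatment called 1 of 9 in splenic M-MDSC (Idi1, an enzyme of isoprenoid synthesis, which fell by 1.55, SE 0.37, adjusted p = 0.0158) and 0 of 6, 0 of 7 and 0 of 9 in splenic PMN-MDSC, tumor PMN-MDSC and tumor M-MDSC. The single call lies near the 8.96% of all genes called lower in splenic M-MDSC, and the other shares were 5.52%, 1.07% and 1.06%. Tumor against spleen called 4 of 7 higher in untreated PMN-MDSC, 2 of 10 in untreated M-MDSC, 1 of 7 in treated PMN-MDSC and 1 of 8 in treated M-MDSC, with 0 lower, against 29.4%, 15.7%, 28.2% and 5.11% of all genes called higher. Insig1, which retains SREBP in the endoplasmic reticulum, was among them in each, at 2.23 (SE 0.22, adjusted p = 2.8e-05) and 1.44 (SE 0.19, adjusted p = 1.5e-04) in untreated PMN-MDSC and M-MDSC.

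The genes whose group means were most like those of each receptor were also listed, as a description over 8 MDSC group means of log2(CPM + 1), which share libraries and depth. For Nr1h3 these were Pex13 (Pearson r = 0.954), Med19 (0.954) and Adrm1 (0.953), and for Nr1h2 they were Lonp2 (0.994), Otud5 (0.992) and Trim12a (0.992), out of 8533 genes. For Abca1 they were E230013L22Rik (0.994), the scavenger receptor gene Stab1 (0.994) and Il1a (0.986). Those of Abcg1 were Ssh3 (0.953), Rnf103 (0.943) and Ermard (0.931), those of Mylip Ppcdc (0.975), Gm10722 (0.962) and Hist1h2bc (0.951), those of Srebf1 Necap2 (0.990), Eif3k (0.986) and Uqcrfs1 (0.984), and those of Scd2 included Dhx15 (0.986) and Dnajc3 (0.981). None of the 7 genes was among the 3 nearest of another. Between members the correlation of Nr1h3 was 0.187 with Abca1, 0.350 with Abcg1, 0.451 with Srebf1, -0.083 with Mylip and 0.221 with Scd2. That of Srebf1 with Mylip was -0.908, that of Abcg1 with Mylip was 0.838, and that of Nr1h2 with Scd2 was -0.964.

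Some reads may be shared with neighbours. Nr1h3 shares 34 exon bases on the same strand with Gm13783, a transcript with at most 12 counts in a library. Srebf1 overlaps Rai1 on the opposite strand over 109 bases, and fragments were counted by strand.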

How the data were processed

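RNA-seq libraries of sorted MDSC and bulk tumor were analysed. The table deposited by the authors holds fragment counts for every gene in every library, not normalized. Per the methods, reads were mapped to mm10 with ContextMap and BWA, and counted by strand with featureCounts (Subread 1.4.6-p3 in the submitters' processing notes) on a Gencode annotation.

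Each column was assigned to a group from the gate, organ and treatment codes in its name. A library with fewer than 1000 counts was left out, which leaves 34 of 35. Symbols, positions and exon lengths came from GENCODE on GRCm38, matched by Ensembl identifier for 53274 of 53379 rows. The 48 pairs of libraries within groups differed far beyond counting noise (chi-square per degree of freedom 6.88 to 55.8), and 0 were identical.

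The statistics were run in edgeR 4.0.16 (R 4.3.3), beside DESeq2 1.42.0 and limma 3.58.1. Each comparison was fitted on its own libraries with TMM factors, robust dispersion and edgeR's two-sided quasi-likelihood test after removal of genes whose mean count was under 25. A gene was called at a Benjamini-Hochberg adjusted p under 0.05. Differences between treatment effects were tested as a contrast over 4 groups. All p-values are adjusted over all genes tested. Also tried were upper-quartile and RLE scaling, DESeq2, omission of the low-count filter, 1 fit over all 8 MDSC groups, the study's threshold of 0.001 with a 2-fold change, CPM by library total, and each library left out.

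The members and gene lists were chosen with earlier results of these data known. Beside the members, the text names from each list the 3 genes of smallest adjusted p among those called, or fewer, and the 3 genes nearest to each member by correlation. On simulated counts the fit recovered 18 of 100 genes changed 2-fold and 90 of 100 changed 4-fold in splenic PMN-MDSC (7452 genes, 6 false calls), and 66 of 100 and 93 of 98 in splenic M-MDSC (8815 genes, 9 false calls). The changed genes were drawn from those with an expected count above the limit of the filter, so these shares do not cover genes of lower counts. Some items that these rules would name are not reported here.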

Additional observations from a re-analysis of the deposited data

Results flagged for a closer look

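The 7 genes were each examined in every group of 4 libraries, which made 49 combinations that share libraries. A single library stood apart from the other 3 of its group in 3 of the 49, by a gap of more than the limit of Dixon's test. Chance exceeds that limit in about 1 in 20 such checks. Abca1 in untreated splenic M-MDSC was lowest in library 2, at 6.91 CPM, a gap of 0.901 of the range. Abcg1 was lowest in library 1 of untreated splenic PMN-MDSC, at 249 CPM (0.874 of the range), and in library 1 of untreated tumor PMN-MDSC, at 109 CPM (0.833 of the range). These libraries also had the lowest neutrophil sums of their groups, at 26165 and 1413 CPM, and the part of neutrophil transcripts was not tested.

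Treatment effects differed between groups in edgeR's quasi-likelihood test of the difference (adjusted p under 0.05). In PMN-MDSC the effect in tumor exceeded that in spleen by 3.41 for Nr1h3 and 1.12 for Abcg1 on the log2 scale, and by 3.47 for Mertk, 5.54 for Pltp and 2.46 for Apoe. In M-MDSC the effect in tumor exceeded that in spleen by 3.42 for Apoe, which fell after treatment in spleen and was not called in tumor. In spleen the effect in M-MDSC differed from that in PMN-MDSC by 3.98 for Nr1h3, 3.45 for Nrip1, 5.56 for Mertk and 4.05 for Lpl, and by -0.91 for Tbl1xr1, -0.93 for Ncoa1, -1.50 for Smpdl3a and -1.33 for Srebf2. Red pulp and tumor macrophage genes differed in the same 2 contrasts (6 of 10 and 4 of 9 tested for compartment in PMN-MDSC, in the direction of Nr1h3, and 4 of 10 and 4 of 6 tested for cell type in spleen, in that direction except Fabp5), and their part in these differences was not tested.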

How the results depend on the processing

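Of 949 log2 fold changes recomputed with 1 library left out, 871 kept direction and side of the threshold, 33 lost and 10 gained a call, and 35 reversed. Of 434 under other alternatives, 400 kept both, 5 lost and 27 gained a call and 2 reversed. The Nr1h3 treatment calls in splenic M-MDSC, tumor M-MDSC and tumor PMN-MDSC held with each library left out (highest adjusted p 3.59e-04, 0.0292 and 0.00841). The cause of the changes was not tested. The number of the 7 genes called changed by over 1.5 times as follows. For treatment in splenic PMN-MDSC it was 0, but 1 by upper quartile and 1 without the low-count filter. In tumor PMN-MDSC it was 1, but 3 by DESeq2, 3 without the filter, 2 in one fit of all groups and 0 at the study's threshold. In splenic M-MDSC it was 2, but 1 without the filter and 1 at the study's threshold, and in tumor M-MDSC 2, but 5 and 0 (3 in one fit). For tumor against spleen it fell at the study's threshold to 1 in untreated PMN-MDSC, 1 in untreated M-MDSC (1 in one fit too), 1 in treated PMN-MDSC (5 by upper quartile) and 0 in treated M-MDSC, where DESeq2 gave 2, no filter 2 and one fit 3. Between cell types it was 1 at that threshold in spleen and 0 in tumor, where no filter gave 4 and one fit 1. For the compartment interaction no filter gave 1 in PMN-MDSC, and DESeq2 and no filter 1 each in M-MDSC. With 1 library left out the counts ranged 0 to 1, 1 to 1, 1 to 2 and 1 to 3 for treatment (in the order above), 3 to 4, 1 to 2, 2 to 3 and 0 to 2 for tumor against spleen, 5 to 6 and 1 to 3 for cell type, and 0 to 2, 0 to 0, 1 to 2 and 0 to 0 for the interactions (compartment in PMN-MDSC and M-MDSC, cell type in spleen and tumor). By upper quartile, Srebf1 in splenic PMN-MDSC became -0.037 and Abca1 in tumor PMN-MDSC -0.012, both uncalled. The ranges of the values that changed sign when 1 library was left out follow. For treatment in splenic PMN-MDSC these were Abca1 -0.54 to 0.89, Srebf1 -0.0067 to 0.24. For treatment in tumor PMN-MDSC these were Abca1 -0.054 to 0.16, Srebf1 -0.043 to 0.16. For treatment in splenic M-MDSC these were Srebf1 -0.015 to 0.20, Mylip -0.026 to 0.23, Scd2 -0.31 to 0.10. For treatment in tumor M-MDSC these were Nr1h2 -0.054 to 0.17. For tumor against spleen in untreated PMN-MDSC these were Nr1h3 -0.73 to 0.14. For tumor against spleen in untreated M-MDSC these were Mylip -0.13 to 0.41. For tumor against spleen in treated M-MDSC these were Nr1h3 -0.67 to 0.026, Scd2 -0.84 to 0.081. For cell type in spleen these were Nr1h3 -0.17 to 0.72. For the compartment interaction in PMN-MDSC these were Nr1h2 -0.22 to 0.024, Abca1 -0.82 to 0.51, Srebf1 -0.16 to 0.047, Scd2 -0.36 to 0.57. For the compartment interaction in M-MDSC these were Nr1h2 -0.19 to 0.024. For the cell type interaction in spleen these were Srebf1 -0.27 to 0.049. For the cell type interaction in tumor these were Scd2 -0.50 to 0.43. Scd2 in tumor PMN-MDSC was called by DESeq2 (adjusted p = 0.00801) and without the filter (0.00121). Of all calls for tumor against spleen in treated M-MDSC, 87.0% were higher, but 71.7% by DESeq2.

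No paired analysis was possible from the column names alone, because they carry a running library number and not the replicate number of sample titles. The group codes of the columns follow the order of the titles, but libraries were not matched by column order alone. A pairing by that order was not tested. Comparisons of compartments and cell types therefore ignore any sharing of mice. In the smallest MDSC library, number 4 of untreated tumor M-MDSC, 3 counts equal 3.78 CPM and Nr1h3 had 10 counts, and in treated splenic PMN-MDSC it had 11 to 20.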
